A study of Mus musculus with 135 samples.

Results

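Serotonin acts on brain cells through a family of membrane receptors, and nearly all of them signal through G proteins. The Htr1 and Htr5 receptors couple to Gi/o proteins and quiet the cell, the Htr2 receptors couple to Gq and raise intracellular calcium, and Htr4, Htr6 and Htr7 couple to Gs and raise cyclic AMP. Cortex and hippocampus receive serotonin fibres from the raphe nuclei of the brainstem, and receptors on their pyramidal cells and interneurons shape mood, fear memory and the response to stress. The receptor genes Htr1a, Htr1b, Htr1d, Htr1f, Htr2a, Htr2c, Htr4, Htr5a, Htr6 and Htr7 were followed here. They were chosen by symbol, and they make up 10 of the 55416 genes counted in each tissue.

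RNA was sequenced from cortex and hippocampus of male Townes mice, in which human globin genes stand in for the mouse ones. AA mice carry the normal human beta-globin and SS mice the sickle form. Stressed mice went through repeat social defeat (RSD), in which an aggressive male intruder was put day after day into a cage of males living together, and treated mice drank minocycline, a tetracycline antibiotic, from before the first defeat until its end. All mice, the untreated controls included, had been through behavioural testing before the brains were taken, and the labels give neither age nor cage. Of the AA mice, cortex was read in 12 controls, 2 with RSD, 1 with minocycline and 18 with both (AA + RSD + minocycline). Of the SS mice, it was read in 8 controls, 6 with RSD, 4 with minocycline and 14 with both. The hippocampus was read in the same numbers except for 11 AA and 7 SS mice. The single AA + minocycline mouse entered no comparison.

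Libraries held 16295042 to 107713193 reads on genes in cortex (median 33848502) and 12869149 to 68731008 in hippocampus (median 36523234). The tissues carried their own markers, with 3 of 3 pyramidal cell and 3 of 3 dentate gyrus markers higher in hippocampus and 3 of 3 upper-layer markers higher in cortex. In each tissue the libraries labelled 9887 (SS + minocycline) and 9877 (AA + RSD + minocycline) held identical counts, and both were left out. The cortex and hippocampus libraries labelled 9674 (AA + RSD) showed the receptor levels of the other tissue and were left out too, with results including them given beside the comparisons they touch. Libraries labelled 5844, 5853, 7078 and 9631 went against their genotype labels in earlier results of these data and were kept, and no call among the 10 receptors differed when they were left out. No receptor was called in a genotype comparison with them in, so unchanged calls say little about the genotype values. The label numbers of the mice fall into separate blocks, called series A, B and C here. All RSD mice without minocycline came from series A, and SS + RSD and SS + RSD + minocycline mice had no series in common.

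All 10 receptors were detected, and every one passed the filter on low counts in every comparison. Levels are given as CPM, the read count scaled to the library's total on genes, and the CPM was divided by exon length in kilobases where genes are set against each other. In cortex, the 5 leading receptors lay close together per kilobase, with medians over 65 libraries of 4.18 for Htr2a, 3.53 for Htr1a, 2.94 for Htr2c, 2.92 for Htr5a and 2.74 for Htr7. Neighbours among these 5 did not differ beyond their spread over libraries. Htr1b (1.6) and Htr6 (1.27) followed, and Htr7 stood above Htr1b beyond that spread. Htr1f (0.42), Htr4 (0.214) and Htr1d (0.0456) came last, each separated from its neighbour by more than 1 SD of their log2 ratio.

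The hippocampus had another order, led by Htr1a. Htr1a, the Gi/o receptor of pyramidal cells that is also the autoreceptor of raphe neurons, had a median of 8.04 CPM per kilobase over 63 libraries and stood above Htr2c (3.67) in 58 of them. Htr7 (2.6) came next, and these 3 steps exceeded the spread. Htr2a (1.92), Htr1b (1.77), Htr5a (1.58), Htr4 (1.5) and Htr6 (1.28) formed a run in which no neighbours were separated beyond it. Htr1f (0.236) and Htr1d (0.0286) were again last. As a median share of the length-scaled sum over the 10 receptors, Htr1a made up 35.2% in hippocampus and 17.7% in cortex, while Htr2a made up 8.33% and 21.1%.

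**Figure D1:**
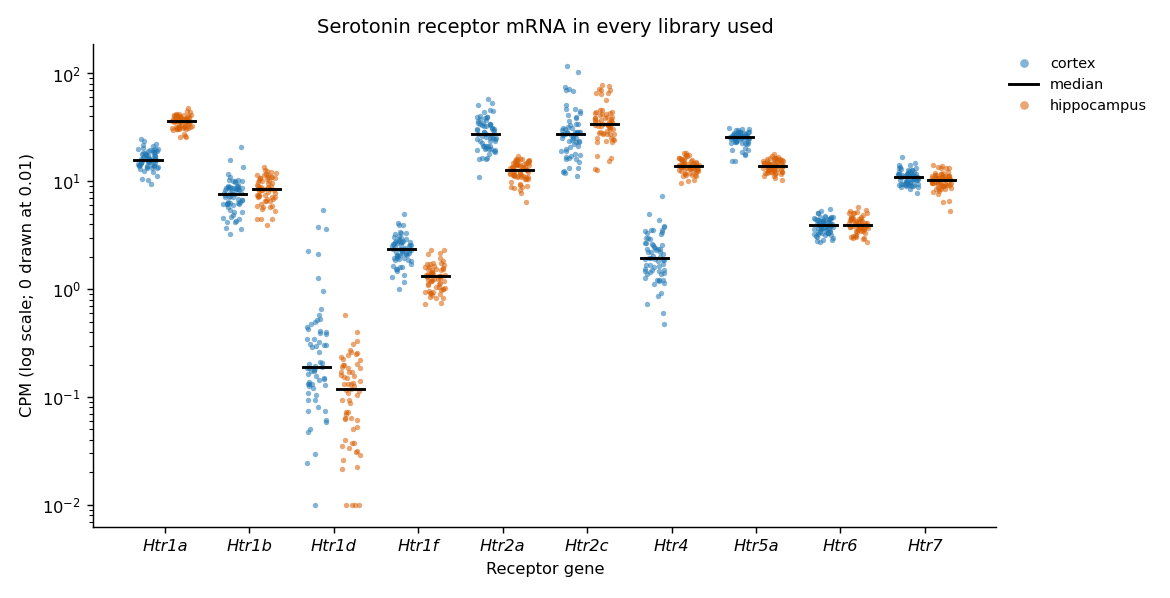
Level of each of the 10 receptors in every library used, as CPM on a log axis, by tissue, with a black line at the median. Each point is 1 of 65 cortex or 63 hippocampus libraries, and libraries at 0 are drawn at the foot of the axis. With the libraries labelled 9674 left out, the Htr4 and Htr1a points of the tissues do not overlap. Htr1d lies lowest in both tissues.

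Receptors also differed in how evenly mice expressed them. Htr5a was the steadiest, with a coefficient of variation over all libraries of 13.6% in cortex and 12.4% in hippocampus. Htr7 (15.1% and 17.1%) and Htr6 (16.4% and 16.9%) were nearly as even. Htr1a varied by 19.2% and 13.4%. Htr4 was steady in hippocampus (13.8%) and uneven in cortex (51.5%), where it was scarce. Htr2c varied by 63% in cortex and 40.7% in hippocampus, and Htr1d, with a median of 8 reads a library in cortex and 4 in hippocampus, by 188% and 79.7%. Htr1d was at 0 reads in 1 cortex and 4 hippocampus libraries and was close to what these depths can detect.

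The tissues were compared first, in untreated control mice of each genotype. Htr4 and Htr1a were higher in hippocampus, Htr2a, Htr5a and Htr1f were higher in cortex, and the other receptors either passed the test in 1 genotype only or in neither. By edgeR's quasi-likelihood test with Benjamini-Hochberg adjustment, 6 of 10 receptors were called in AA mice and 5 of 10 in SS mice. This fit had no term for the mouse and treated libraries as independent, although 18 control mice gave both tissues. With the mouse as a replicate block the same receptors were called, and besides them Htr1d in AA and Htr2c in SS mice. Among all 19255 genes tested, 36.6% were called in AA mice and 30.6% in SS mice. In these bulk samples, fewer cells of a type and less RNA per cell cannot be told apart.

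Htr4 encodes a Gs-coupled receptor that raises the excitability of hippocampal neurons. Its cortical CPM ran from 1.18 to 3.23 (median 1.93) in 12 AA mice and from 1.14 to 2.46 (median 1.65) in 8 SS mice. In hippocampus it ran from 11.9 to 17.4 (median 14.9) in 11 AA mice and from 11.3 to 18.4 (median 14.9) in 7 SS mice. Every hippocampus library used was above every cortex library used. The libraries labelled 9674, left out for receptor levels of the other tissue, held 14.9 CPM under the cortex label and 1.74 under the hippocampus label. The separation over all libraries thus rests in part on leaving them out. The fold was 7.31 in AA mice (95% CI 6.05 to 8.83, log2 2.87 ± 0.13 SE, edgeR adjusted p = 4.68e-20) and 8.47 in SS mice (95% CI 6.67 to 10.7, adjusted p = 1.3e-17). The gene lies on chromosome 18.

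Htr1a (chr13:105580147-105584630, plus strand, GRCm39) was the other receptor whose tissue ranges did not overlap over all libraries used, a separation shared by 0.758% of the genes tested. It too rests in part on leaving out the libraries labelled 9674, with 38.7 CPM under the cortex label and 15.5 under the hippocampus label. AA mice had 13.7 to 20.1 CPM in cortex (median 15.9) and 32.1 to 48.1 in hippocampus (median 39.2). SS mice had 10.6 to 18.2 CPM in cortex (median 14.4) and 26.1 to 44.5 in hippocampus (median 32). The hippocampus exceeded the cortex 2.3-fold in AA mice (95% CI 2.03 to 2.61, edgeR adjusted p = 4.42e-14) and 2.31-fold in SS mice (95% CI 1.97 to 2.71, adjusted p = 2.17e-11).

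Among the receptors higher in cortex, Htr2a (chr14:74877344-74946934, plus strand), the Gq receptor of cortical pyramidal cells at which classic hallucinogens act, differed most. Its cortical CPM was 24.9 to 51.4 (median 33.1) in AA mice and 21.4 to 57.9 (median 28.1) in SS mice. In hippocampus the ranges were 9.44 to 16.2 (median 14.7) and 6.41 to 16.2 (median 11.1). Over all libraries used the tissues overlapped, with 11 CPM in the lowest cortex and 17.2 in the highest hippocampus library. The cortex exceeded the hippocampus 2.49-fold in AA mice (edgeR adjusted p = 1.59e-09) and 2.87-fold in SS mice (adjusted p = 1.35e-08).

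Htr5a (chr5:28047147-28063529, plus strand), a Gi/o-coupled receptor, had 22.5 to 30.2 CPM in cortex of AA mice (median 26.5) and 24.7 to 30.5 in SS mice (median 26.8). Its hippocampal ranges were 11.8 to 16.3 (median 14) and 10.7 to 15.7 (median 12.1). Over all libraries used the tissues overlapped here too, with 15.4 CPM in the lowest cortex and 17.8 in the highest hippocampus library. The cortex was 1.89-fold higher in AA mice (edgeR adjusted p = 7.03e-15) and 2.15-fold higher in SS mice (adjusted p = 3.72e-14). Htr1f (chr16:64742111-64926217, minus strand), the Gi/o receptor targeted by the migraine drug lasmiditan, was expressed at low levels, with 1.62 to 3.14 CPM in cortex of AA mice and 0.726 to 1.73 in hippocampus. It was 1.77-fold higher in cortex of AA mice (edgeR adjusted p = 1.27e-05) and 1.74-fold higher in SS mice (adjusted p = 0.000597), although single libraries of the tissues overlapped.

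**Figure D2:**
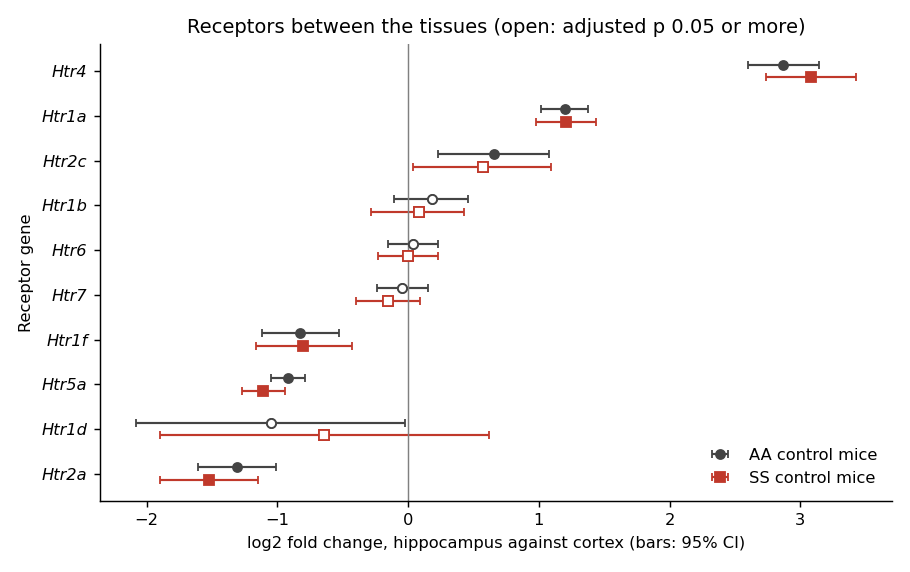
Log2 fold change of each receptor between hippocampus and cortex of untreated control mice, with its 95% confidence interval, AA mice as circles and SS mice as squares. Values right of 0 are higher in hippocampus, and open symbols mark values that were not called. Htr4 stands farthest right at 2.87 and 3.08, and Htr2a farthest left among the called receptors at -1.31 and -1.52.

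Htr2c (chrX:145745509-145980286, plus strand), a Gq receptor of neurons and the most abundant serotonin receptor of the choroid plexus, was the least settled of the called genes. It was 1.58-fold higher in hippocampus of AA mice (95% CI 1.17 to 2.12, edgeR adjusted p = 0.0117), and its 1.48-fold value in SS mice was not called (adjusted p = 0.101). The choroid plexus, which makes the cerebrospinal fluid, varied between hippocampus libraries. Its 8 markers summed to 30.7 to 4440 CPM in AA and 30 to 2430 in SS controls, and 6 of the 8 were detected in every hippocampus library, among them Ttr, Kl, Folr1 and Clic6. Of the 10 hippocampus libraries over 1000 CPM, those of untreated controls were labelled 9838 and 9839 (AA) and 5349 (SS). Without these control libraries, the AA value of Htr2c was 0.38 on the log2 scale and was no longer called (edgeR adjusted p = 0.14). With the mouse as a replicate block its SS value was 0.71 and was called (adjusted p = 0.0294). The same block gave Htr1d (chr4:136150835-136172370, plus strand), a Gi/o receptor of nerve endings, a call in AA mice at -1.31 (adjusted p = 0.00308), against -1.05 without it (adjusted p = 0.106).

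For the other 3 receptors no tissue difference passed the test. Htr6 (chr4:138786811-138802923, minus strand), the Gs receptor of striatal and cortical neurons, had a hippocampus to cortex fold of 1.03 in AA mice (95% CI 0.904 to 1.17) and 0.998 in SS mice (95% CI 0.85 to 1.17). Htr7 (chr19:35935818-36035177, minus strand), a Gs receptor linked to circadian timing, had folds of 0.968 (95% CI 0.844 to 1.11) and 0.899 (95% CI 0.758 to 1.07). Htr1b (chr9:81510344-81515902, minus strand), the Gi/o autoreceptor of serotonin terminals, had folds of 1.13 (95% CI 0.926 to 1.38) and 1.05 (95% CI 0.823 to 1.35). None of these was called, and the intervals leave room for differences of the sizes they span. An annotated gene on the other strand overlaps 18.9% of the exonic bases of Htr1b, while none of the other 9 has such a partner. The tissue difference itself was then compared between genotypes, and 0 of 10 receptors differed (0% of all genes were called). The lowest unadjusted p was that of Htr5a, whose SS minus AA value was -0.19 on the log2 scale (95% CI -0.39 to 0.02).

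The next question was whether defeat moved the receptors in sickle mice. In cortex, 0 of 10 receptors were called between SS + RSD and SS mice, while 2.57% of all genes were (511 of 19906). The median log2 fold change was 0.28 over the receptors, with 8 of 10 positive, and 0.08 over all genes tested. Without the library labelled 9621 the receptor median was 0.00, with 5 of 10 positive. The share over all genes depended on the libraries and the fit. Of the 511 calls, 0 were left without the library labelled 9621, 5391, 9615 or 9616 and 2 without 5354, while 636 were made without 5400. There were 862 with RLE scaling, 3348 with only the groups compared, and 0 when the number series was a term. Reads that fell outside genes also differed in share, at 3.69 to 8.39% in SS + RSD and 4.63 to 11% in SS mice, and with this share as a term 0 genes were called.

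Htr1d had the largest cortical value in that comparison, and it rested on 1 library. The 6 SS + RSD mice had 0.131, 0.144, 0.148, 0.195, 0.3 and 3.77 CPM, against 0 to 0.412 (median 0.179) in 8 SS mice. The 5 lower libraries lay within the SS range and the library labelled 9621 far above it. The log2 fold change was 1.96 ± 0.96 (SE, 95% CI -0.00 to 3.92, edgeR adjusted p = 0.182) and became -0.07 without 9621. Htr2c followed the same library, with 12.1, 13.2, 16.3, 22.2, 23.8 and 104 CPM in SS + RSD mice against 11.9 to 36.5 (median 21.5) in SS mice. Its log2 fold change was 0.65 (95% CI -0.27 to 1.58, adjusted p = 0.336) with 9621 and -0.20 without it. Htr1b went from 0.46 to 0.07 in the same way, with 20.6 CPM in 9621 and 4.23 to 11.7 in the other 5.

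The Gs receptors showed no call after defeat in cortex. Htr4 had 0.919, 1.22, 1.53, 1.64, 2.34 and 5.01 CPM in SS + RSD mice against 1.14 to 2.46 (median 1.65) in SS mice, with 9621 again the highest. Its log2 fold change was 0.44 (95% CI -0.43 to 1.30, edgeR adjusted p = 0.501), and -0.02 without 9621. Htr6 had 3.05 to 4.67 CPM in SS + RSD and 3.29 to 4.71 in SS mice, a log2 fold change of -0.03 (95% CI -0.30 to 0.24). Htr7 had 9.08 to 12.4 CPM against 9.21 to 11.7, a log2 fold change of 0.14 (95% CI -0.09 to 0.37). The SS + RSD and SS ranges of both receptors overlapped for most libraries, and neither value turned on 9621, since they were 0.02 and 0.16 without it.

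The remaining receptors were not called either. Htr1a had 12.9, 13.9, 15.4, 15.8, 17.1 and 18 CPM in cortex of SS + RSD mice against 10.6 to 18.2 (median 14.4) in SS mice, a log2 fold change of 0.19 (95% CI -0.11 to 0.49, edgeR adjusted p = 0.389). Htr2a had 20.3, 21.3, 27.5, 27.6, 39.8 and 45.1 CPM against 21.4 to 57.9 (median 28.1), a log2 fold change of 0.07 (95% CI -0.44 to 0.57). Htr5a had 17.5, 22.7, 22.9, 24.6, 26.4 and 26.7 CPM against 24.7 to 30.5 (median 26.8), a log2 fold change of -0.09 (95% CI -0.36 to 0.18). In each case most SS + RSD libraries fell inside the SS range, except for Htr5a, where 4 of 6 lay below it. Within number series A, which holds 2 SS and all 6 SS + RSD mice, the log2 fold changes of Htr1a, Htr1b, Htr1d, Htr2c and Htr4 were -0.01, 0.62, 0.93, 0.96 and 0.46, and none was called.

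**Figure D3:**
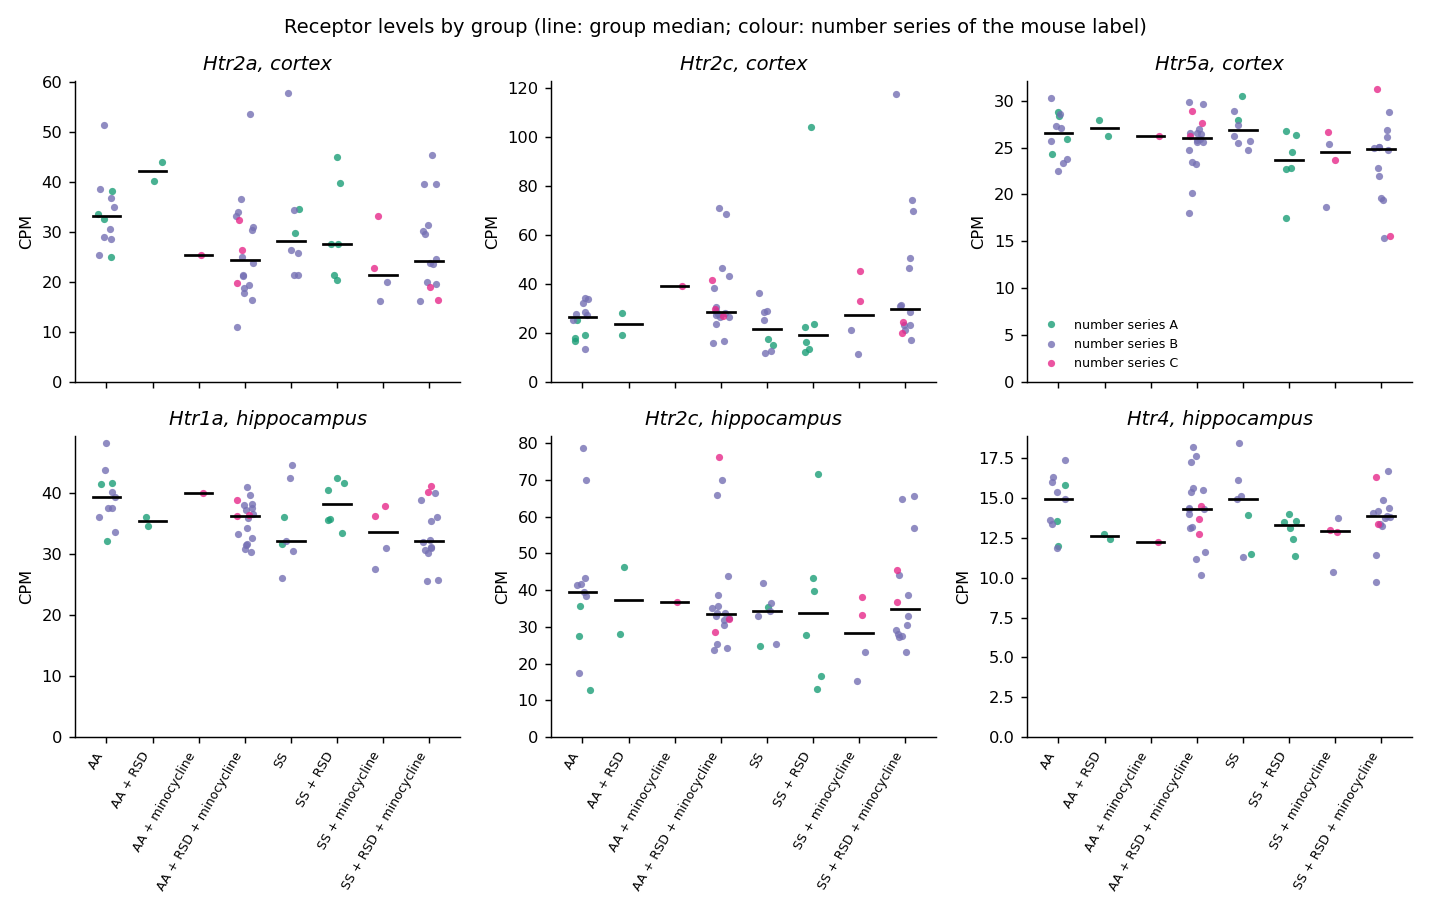
CPM of Htr2a, Htr2c and Htr5a in cortex and of Htr1a, Htr2c and Htr4 in hippocampus in each library, by group, with a line at the group median and colours for the number series of the mouse. In cortex the SS + RSD library at 104 CPM of Htr2c stands apart from the other 5, which reach 23.8, and hippocampal Htr4 lies between 9.75 and 18.4 CPM in every library plotted.

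In hippocampus, 0 of 10 receptors were called between SS + RSD and SS mice, against 3.11% of all genes. Of those 643 calls 0 were left without any one of the libraries labelled 5391, 9615, 9616, 9621 or 5354, with number series or the share of reads outside genes as a term, or without the libraries rich in choroid plexus markers, while 903 were made without 5400. The receptor median was 0.17 on the log2 scale and that of all genes 0.06. Htr1a had 33.4, 35.5, 35.7, 40.5, 41.5 and 42.4 CPM in SS + RSD mice and 26.1 to 44.5 (median 32) in SS mice. All 6 defeated mice lay above the SS median and inside the SS range. The log2 fold change was 0.24 (95% CI -0.01 to 0.49, edgeR adjusted p = 0.284). Htr5a had 12.2, 12.3, 12.6, 14.7, 14.7 and 16.6 CPM against 10.7 to 15.7 (median 12.1), a log2 fold change of 0.21 (95% CI -0.00 to 0.42, adjusted p = 0.256).

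Hippocampal Htr4 was among the most narrowly measured receptors. Its 6 SS + RSD libraries held 11.4, 12.4, 13.1, 13.5, 13.5 and 14 CPM, within the SS range of 11.3 to 18.4 (median 14.9), and the log2 fold change was -0.05 (95% CI -0.27 to 0.17). Htr6 had 3.33, 3.78, 3.88, 4.03, 4.47 and 5.77 CPM against 2.97 to 5.05 (median 3.93), with a log2 fold change of 0.15 (95% CI -0.17 to 0.47). Htr7 had 6.58, 9.72, 9.8, 10.6, 10.7 and 10.7 CPM against 8.19 to 11.6 (median 9.14), with a log2 fold change of 0.11 (95% CI -0.13 to 0.35). The groups overlapped for all 3 Gs receptors. Htr2c ranged from 13 to 71.7 CPM in SS + RSD mice and from 24.8 to 42 in SS mice, and its log2 fold change of 0.20 became -0.42 without the libraries rich in choroid plexus markers, uncalled in both fits.

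Minocycline in defeated sickle mice was the next comparison. In cortex 0 of 10 receptors were called between SS + RSD + minocycline and SS + RSD mice, against 8.85% of all genes, and the receptor median was -0.02 on the log2 scale beside -0.05 for all genes. The 1762 calls became 863 without the library labelled 9615, 869 without 9616, 1136 without 5354, 4 with the share of reads outside genes as a term and 0 with the number series as a term. Because these groups have no number series in common, the drug and the series cannot be told apart within a series, and a fit with the series as a term rests on the controls. Cortical Htr4 had 0.598 to 7.36 CPM (median 2.35) in 14 SS + RSD + minocycline mice, spanning the whole SS + RSD range. Its log2 fold change was 0.28 ± 0.38 (SE, 95% CI -0.50 to 1.06, edgeR adjusted p = 0.669), and 0.73 without 9621 (adjusted p = 0.228). Htr6 had 2.73 to 5.11 CPM (median 4.08), a log2 fold change of -0.00 (95% CI -0.25 to 0.24). Htr7 had 8.94 to 16.7 CPM (median 11.4), a log2 fold change of 0.01 (95% CI -0.20 to 0.22). The log2 fold changes of Htr1d and Htr2c were 0.32 and 0.26, and 2.34 (adjusted p = 0.101) and 1.11 (adjusted p = 0.0715) without 9621. Without all 3 cortex libraries rich in striatum markers, 2 of which are treated mice, they were 1.24 (adjusted p = 0.289) and 0.78 (adjusted p = 0.138), and Htr4 was at 0.50 (adjusted p = 0.412).

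In hippocampus 0 of 10 receptors were called in the same comparison, against 5.96% of all genes. Those 1234 calls became 2 without the library labelled 5354, 7 without 5391, 16 without 9615, 129 without 9616 and 430 without 9621. They became 0 with the number series or the share of reads outside genes as a term, and 0 without the libraries rich in choroid plexus markers. Htr1a had the lowest p. It had 25.5 to 41 CPM (median 32) in SS + RSD + minocycline mice, beside the 33.4 to 42.4 of SS + RSD mice, so that the ranges overlapped while 6 of 6 SS + RSD values exceeded the treated median. The log2 fold change was -0.25 ± 0.11 (SE, 95% CI -0.47 to -0.03, unadjusted p = 0.027, edgeR adjusted p = 0.135). Htr4 had 9.75 to 16.7 CPM (median 13.8) and a log2 fold change of 0.02 (95% CI -0.17 to 0.21). Htr6 had 2.71 to 5.24 CPM (median 3.85) and a log2 fold change of -0.16 (95% CI -0.44 to 0.12). Htr7 had 7.91 to 13.9 CPM (median 10.9) and a log2 fold change of 0.10 (95% CI -0.11 to 0.31). The 3 Gs receptors thus had intervals on both sides of 0 in both tissues.

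Htr1f had the lowest unadjusted p of the receptors when minocycline was given without defeat. The 4 SS + minocycline mice had 1.54, 3.3, 3.3 and 3.98 CPM in cortex against 1.17 to 2.71 (median 2) in SS mice, and 1.18, 1.37, 2.14 and 2.31 in hippocampus against 0.852 to 1.93 (median 1.04). The higher values exceeded the SS range in 3 of 4 cortex and 2 of 4 hippocampus libraries. The log2 fold changes were 0.65 in cortex (95% CI 0.11 to 1.18, unadjusted p = 0.0189, edgeR adjusted p = 0.666) and 0.63 in hippocampus (95% CI 0.11 to 1.14, unadjusted p = 0.0197, adjusted p = 0.981). Neither passed the correction, and in this comparison 0% of all genes did in cortex and 0% in hippocampus. The SS + minocycline mice labelled 7108 and 7121 came from series C, which held no untreated SS mouse. Drug and number series thus cannot be fully told apart here. Between SS + RSD + minocycline and SS + minocycline mice 0 of 10 receptors were called in either tissue, again beside 0% of all genes. For Htr7, the intervals of all 4 comparisons between SS groups lay within -0.20 to 0.37 on the log2 scale in cortex and within -0.16 to 0.39 in hippocampus.

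Genotype was compared at each matched exposure. In cortex 0 of 10 receptors were called between untreated SS and AA mice (0.206% of all genes), 0 between SS + RSD and AA + RSD mice (0% of all genes), and 0 between the genotypes when defeat and minocycline were combined (0.599% of all genes). In hippocampus the counts were 0 beside 0.158%, 0 beside 0.0171% and 0 beside 2.73% of all genes. All 10 receptors had a negative log2 fold change in cortex of untreated SS mice, with a median of -0.23 beside -0.05 for all genes, and 9 of 10 did in hippocampus, with a median of -0.19 beside 0.01. The receptors came from the same libraries and some varied together, so these signs are not separate observations. The share of negative values over all genes was not counted. With the libraries labelled 9674 kept, hippocampal Htr2a was called between SS + RSD and AA + RSD mice, at -0.87 on the log2 scale (edgeR adjusted p = 0.0347) against -0.14 without them. The signs in untreated mice are counts over values that were each uncalled. The untreated AA libraries of both tissues include those labelled 5844 and 9631, which went against their genotype labels. Values without them are not given here.

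Htr1a had an unadjusted p under 0.05 in both tissues of untreated mice. In cortex it had 10.6 to 18.2 CPM in SS and 13.7 to 20.1 in AA mice (log2 fold change -0.25, 95% CI -0.49 to -0.02, edgeR adjusted p = 0.678). In hippocampus it had 26.1 to 44.5 against 32.1 to 48.1 (log2 fold change -0.20, unadjusted p = 0.0287, adjusted p = 1). Hippocampal Htr2a had 6.41 to 16.2 CPM in SS and 9.44 to 16.2 in AA mice (log2 fold change -0.34, 95% CI -0.60 to -0.07, adjusted p = 0.951). In defeated mice on minocycline, cortical Htr1a had 11.3 to 23.7 CPM in 14 SS mice (median 14.5) and 10.2 to 24.6 in 18 AA mice (median 18.2), a log2 fold change of -0.27 (95% CI -0.46 to -0.09, unadjusted p = 0.00378, adjusted p = 0.223). Cortical Htr1d had 0.0295 to 5.39 CPM (median 0.421) against 0.0243 to 2.26 (median 0.132). Its log2 fold change was 1.62 (95% CI 0.51 to 2.74, adjusted p = 0.253), and 0.51 (adjusted p = 0.835) without the libraries rich in striatum markers.

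The AA comparisons rest on 2 AA + RSD mice, whose spread is taken from the model over all AA groups. In cortex 0 of 10 receptors were called between AA + RSD and AA mice (0% of all genes) and 0 between AA + RSD + minocycline and AA + RSD mice (0%). In hippocampus the counts were 0 of 10 in each, with 0.0419% of all genes called in both. Cortical Htr2a had 40.2 and 44.1 CPM in AA + RSD mice, 24.9 to 51.4 in AA mice and 11 to 53.6 (median 24.5) in AA + RSD + minocycline mice. The log2 fold change between the defeated groups was -0.73 (95% CI -1.32 to -0.13, unadjusted p = 0.0178, edgeR adjusted p = 0.332). Htr1b (-0.57, adjusted p = 0.332) and Htr1f (-0.63, adjusted p = 0.347) also had an unadjusted p under 0.05 there. With the libraries labelled 9674 kept, cortical Htr4 was called in both comparisons, at 1.66 and -1.47 on the log2 scale, against -0.34 and 0.54 without them. In hippocampus they gave Htr5a calls at 0.47 and -0.50 (0.16 and -0.19 without them), and a call of Htr2a between AA + RSD + minocycline and AA + RSD mice at -0.85 (-0.12 without them).

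The response to defeat was also compared between genotypes. In neither tissue did a receptor differ (0 of 10 in each, beside 0% of all genes in cortex and 0.0128% in hippocampus). Hippocampal Htr1a had the lowest p, with an SS minus AA difference of 0.37 on the log2 scale (95% CI 0.02 to 0.72, unadjusted p = 0.0366, edgeR adjusted p = 1). Over all 20 comparisons of condition or genotype, 200 receptor values were tested and 0 were called by edgeR or by DESeq2. The unadjusted edgeR p was under 0.05 for 14 of them, and for at most 3 of 10 in any 1 comparison. Between AA + RSD + minocycline and AA + RSD mice in cortex it was 3 of 10, beside 2867 of 21861 genes. Between the genotypes on defeat and minocycline in cortex it was 3 of 10, beside 2035 of 22870. Between untreated SS and AA mice in hippocampus it was 3 of 10, beside 896 of 23372. Over all genes, such p-values were fewest in the interaction of genotype and RSD in cortex, at 424 of 22870. By number they were most between SS + RSD + minocycline and SS + RSD mice in hippocampus, at 5539 of 20701, beside 1 of 10 receptors. As a share they were higher between SS + RSD and SS mice in cortex, at 5508 of 19906, beside 0 of 10 receptors. Whether the receptors hold more or fewer than other genes was not tested.

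**Figure D4:**
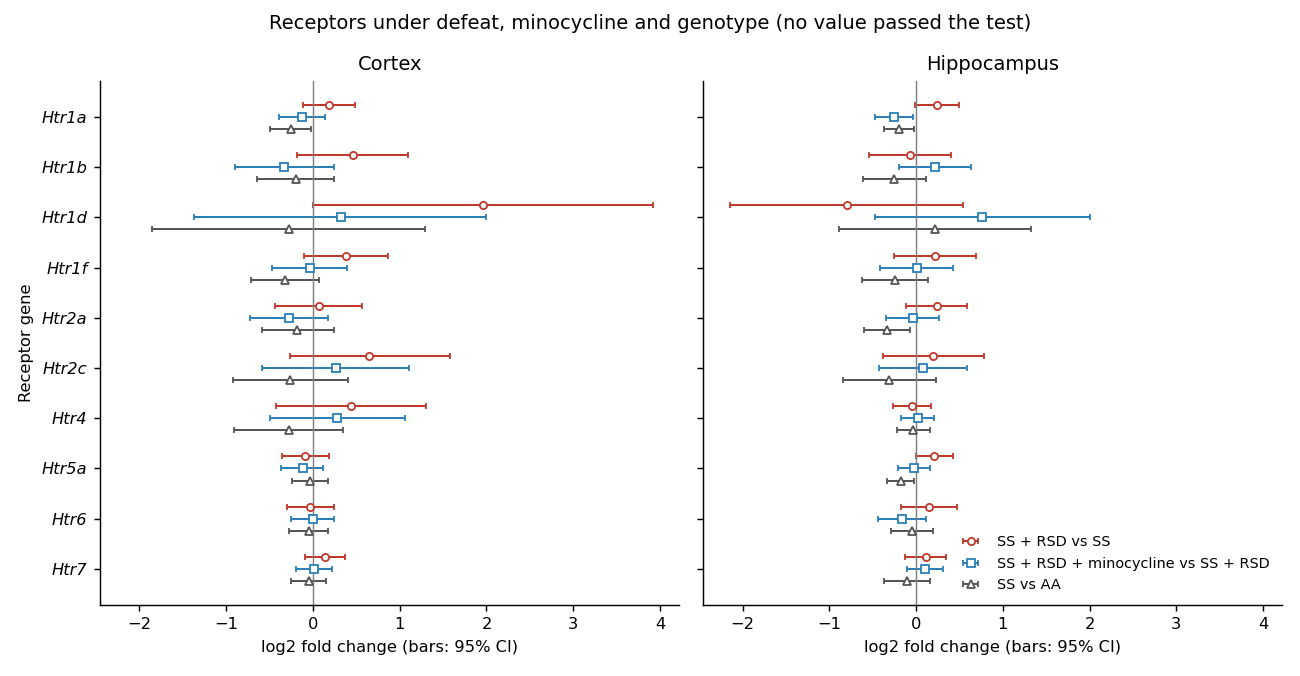
Log2 fold change of each receptor with its 95% confidence interval, cortex in one panel and hippocampus in the other, for SS + RSD against SS, SS + RSD + minocycline against SS + RSD, and SS against AA mice. No value passed the test, and cortical Htr1d has the widest interval, from -0.00 to 3.92 between SS + RSD and SS mice.

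The cortex libraries differed in how many markers of neighbouring structures they held, and several receptors varied with them. The 9 markers of the striatum, the structure under the cortex, summed to 1480 CPM in the SS + RSD library labelled 9621 and to 1190 and 832 in the SS + RSD + minocycline libraries labelled 9813 and 9890. No other cortex library exceeded 564. All 9 markers, the dopamine receptors Drd1 and Drd2 among them, were detected in every cortex library, and each was higher in those 3 libraries than in the other 62. The same 3 libraries held 3.77, 5.39 and 3.65 CPM of Htr1d and 104, 118 and 74.3 CPM of Htr2c. The other 62 held 0 to 2.26 CPM of Htr1d (median 0.185) and 11.2 to 71.1 of Htr2c (median 27.1). Htr4 reached 5.01, 7.36 and 3.54 CPM there and 0.479 to 4.39 elsewhere. The summed markers ran from 205 to 1480 CPM in SS + RSD, 144 to 1190 in SS + RSD + minocycline and 191 to 430 in SS mice. Over all 65 libraries, Htr2c and Htr4 had r = 0.30 and 0.31 with these markers, and -0.13 and 0.02 in the 62 others. Their part in the group values was not tested beyond leaving those libraries out.

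Across libraries, Pearson correlations of log2 CPM with summed markers are given as descriptions, since the points share groups and number series. In 65 cortex libraries Htr1d had r = 0.79 with the striatum markers (0.63 in the 62 others). Htr1b had r = 0.67 with them (0.54 in the 62 others) and r = 0.72 with the markers of CGE interneurons, a class of inhibitory cells (0.68 in the 62 others). Htr2c had r = 0.82 with the 5 markers of the thalamus, and 0.79 in the 62 others, and Htr4 had r = 0.65 (0.58). The 5 markers summed to a median of 68.4 CPM in cortex and 98 in hippocampus, and how much of either came from thalamic tissue was not tested. In hippocampus the 10 libraries with choroid plexus markers over 1000 CPM held 24.8 to 78.6 CPM of Htr2c (median 67.9), against 12.9 to 65.8 (median 33) in the other 53. Htr2c had r = 0.44 with these markers over 63 libraries and -0.23 within the other 53. Htr7 ran against the dentate gyrus markers (r = -0.64 over 63 libraries), and Htr5a went with deep-layer markers (r = 0.65).

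**Figure D5:**
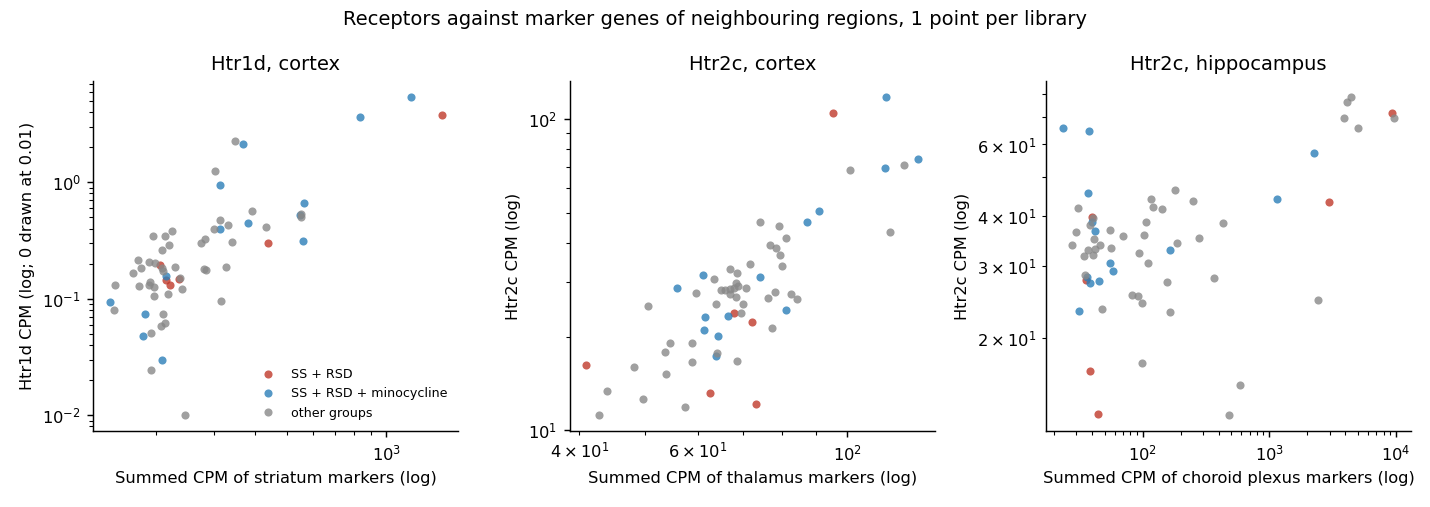
CPM of Htr1d against summed striatum markers in cortex, Htr2c against summed thalamus markers in cortex, and Htr2c against summed choroid plexus markers in hippocampus, 1 point a library, both axes on log scales. The 3 cortex libraries with striatum sums from 832 to 1480 CPM hold the 3 highest Htr1d values, from 3.65 to 5.39.

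Some receptors varied together. In cortex Htr2c and Htr4 had r = 0.80 over 65 libraries (0.75 without the 3 striatum-rich libraries), and r = 0.18 in hippocampus. Htr1b and Htr2a had r = 0.63 in cortex and 0.61 in hippocampus. Each receptor was also matched with the genes most like it over the libraries of its higher tissue, by Pearson r of log2 CPM. Htr1d in cortex was most like Drd1 (r = 0.88), Gng7 (0.86) and Tacr1 (0.85), over 13398 genes compared. Htr5a in cortex was most like Foxo3 (0.87), Tbc1d30 (0.86) and Herc3 (0.85), and Htr2a like Acvr1c (0.83), Nol4 (0.74) and Ccng2 (0.73). Htr1f was most like Klhl7 (0.67), Ano3 (0.67) and Ccng2 (0.65), and Htr7 like Pip5k1b (0.63), Ppm1m (0.56) and Lad1 (0.55). In hippocampus, over 13480 genes, Htr2c was most like Emb (0.86), Sntb1 (0.79) and Hs6st2 (0.77), and Htr1b like Cdh6 (0.82), Syt14 (0.74) and Elovl6 (0.74). Htr4 was most like Acot4 (0.69), Nrp2 (0.67) and Chrna7 (0.67), Htr6 like C2cd2l (0.72), Prrt3 (0.7) and Sema6b (0.7), and Htr1a like Snx27 (0.66), Nfya (0.64) and Dubr (0.61).

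Of the rest of the serotonin pathway, 4 further receptors and 8 genes of serotonin synthesis, transport and breakdown were counted, with 7 genes of the Gi/o arm, 10 of the Gs arm, 6 of the Gq arm and 6 receptor partners. In cortex of SS mice, 2 of the 4 receptors and 6 of the 8 passed the filter on low counts. In cortex of SS + RSD against SS mice 1 of these genes was called. It was Htr5b, a close relative of Htr5a, with 1.26 to 2.2 CPM (median 1.89) in SS + RSD and 0.552 to 1.45 (median 0.969) in SS mice, a log2 fold change of 0.92 (95% CI 0.41 to 1.43, edgeR adjusted p = 0.0472). The call was lost without any one of the 6 SS + RSD libraries and within number series A, where the value was 0.99 (adjusted p = 1), and also with the share of reads outside genes as a term, at 0.71 (adjusted p = 0.888). Between SS + RSD + minocycline and SS + RSD mice, Htr5b (-0.86, adjusted p = 0.0166), the serotonin-degrading enzyme Maob (-0.48, adjusted p = 0.0139), the protein kinase A subunit Prkacb (-0.30, adjusted p = 0.0332), the Gq-class protein Gna11 (-0.23, adjusted p = 0.0284) and the scaffold Dlg4 (-0.26, adjusted p = 0.0251) fell. Over all genes, 8.85% were called in this comparison. With number series as a term these calls were lost, with Htr5b at -0.94 and Maob at 0.15 (adjusted p = 1). With the share of reads outside genes as a term the 5 calls were lost too, Htr5b being at -0.67 (adjusted p = 0.245) and Maob at -0.27 (adjusted p = 0.33). Over 15 alternatives Htr5b and Maob were each called in 12, Dlg4 and Prkacb in 6 and Gna11 in 5. In that comparison 2 of 5 astrocyte, 2 of 5 microglia and 1 of 5 endothelial markers were called lower too, and the part of cell makeup was not tested. No gene of these lists was called in the matching hippocampus comparisons.

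Between the tissues of AA mice, Htr5b was 3.85-fold and the vesicular transporter Slc18a2 22.6-fold higher in hippocampus. The organic cation transporter Slc22a3, which takes up serotonin, was higher in cortex (log2 fold change -0.99). The counts of the other lists stand beside the 36.6% of all genes called in this comparison. In the Gq arm 3 of 6 genes were higher in hippocampus and 3 lower, led by Plcb4 (-1.49) and Itpr1 (-0.88), and in the Gs arm 1 of 10 was higher and 4 lower, among them Prkacb (-0.76) and Adcy8 (-0.68). In the Gi/o arm 1 of 7 was higher, the potassium channel subunit Kcnj6 (0.55), and 2 were lower, among them Kcnj9 (-0.94). Of the 6 receptor partners 3 were higher and 2 lower, with S100a10 (-0.71) and Arrb1 (-0.50) among the latter. The raphe markers Tph2 and Slc6a4, which define the cells that make serotonin, had medians of 0.942 and 0.0525 CPM in cortex and 1.08 and 0.0599 in hippocampus.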

How the data were processed

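Polyadenylated RNA from cortex and hippocampus was sequenced single-end from stranded libraries. The deposited values are raw read counts per gene, which the authors obtained with STAR on GENCODE genes. The release, STAR version and strand setting are not given in the sources used here. Gene positions and lengths were taken from GENCODE vM39 on GRCm39. Groups came from the sample labels. 1 sample with conflicting tissue labels had no group, and 3 table columns were not used. Genes passed edgeR's filterByExpr (minimum count 10, minimum total 15). TMM-normalised counts were tested with edgeR 4.0.16 (R 4.3.3) by its quasi-likelihood test, in 1 model per genotype and tissue, or per tissue for genotype comparisons, and 1 model of untreated controls for tissue. Benjamini-Hochberg adjusted p under 0.05 over all genes counted as a call. DESeq2 1.42.0, other normalisation and filters, leaving out replicates, number series and the mouse as replicate block were alternatives. The procedure was tested on simulated counts.

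The members and gene lists were chosen with earlier results of these data known. Named genes were the 10 receptors, up to 3 called genes of largest change per comparison in each pathway list with any gene of the first 2 lists, and for each receptor the 3 genes most correlated with it (mean log2 CPM of at least 1, prior count 2). Leaving out libraries by summed markers (over 800 CPM striatum, over 1000 CPM choroid plexus) and the contrast of tissue differences between genotypes were chosen after the data were seen. For 18 mice both tissues were in the controls, and the mouse number was taken to pair samples of the same animal. The deviations of the tissues from their group means correlated in all 18 pairs (r 0.24 to 0.779, median 0.553). No pairs of different mice were computed, so these values alone cannot show that a pair is 1 animal.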

Additional observations from a re-analysis of the deposited data

Results flagged for a closer look

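Each set examined was 1 receptor in 1 tissue and 1 group of 4 to 8 libraries, which only SS, SS + RSD and SS + minocycline mice had. Of 60 such sets, 6 held a library far from the others by Dixon's criterion. For independent and normally distributed values chance alone gives about 1 set in 20, but these sets share libraries. In the cortex library labelled 9621 of the SS + RSD mice, 3 receptors stood out, with Htr1d at 3.77 CPM (next highest 0.3), Htr2c at 104 (next 23.8) and Htr4 at 5.01 (next 2.34). Summed striatum markers were also highest in this library, at 1480 CPM, and their part in these values was not tested. In cortex of SS mice, the library labelled 5785 had 57.9 CPM of Htr2a (next 34.5). In hippocampus, Htr7 was lowest at 6.58 CPM in the SS + RSD library labelled 5391 (next 9.72), and Htr6 was highest at 5.4 in the SS + minocycline library labelled 9888 (next 3.89).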

How the results depend on the processing

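Of 286 counts of called receptors recomputed under the alternatives, 280 stayed within 1.5 times the reported count. The exceptions rose from 0. In cortex, mice of number series B only gave 1 call between SS + RSD + minocycline and SS + minocycline mice, that of Htr4 at 1.73 on the log2 scale (adjusted p = 0.0313). With the libraries labelled 9674 kept, there was 1 call in cortex between AA + RSD and AA mice and 1 between AA + RSD + minocycline and AA + RSD mice, both of Htr4, at 1.66 and -1.47, with reversed signs. In hippocampus the same libraries gave 1, 2 and 1 calls between AA + RSD and AA, AA + RSD + minocycline and AA + RSD, and SS + RSD and AA + RSD mice, of Htr5a and Htr2a. When the number series entered as a term, Dlg4 and Maob between SS + RSD + minocycline and SS + RSD mice in cortex came to 0.01 and 0.15 (adjusted p = 1). The causes were not tested. Of these counts, 80 came from fits without 1 replicate, and all of those, in the condition comparisons, stayed at 0. With the mouse as a replicate block, 7 receptors were called between the tissues in AA and 6 in SS mice. Of 219 uncalled receptor values, 109 changed sign under at least 1 alternative. Calls over all genes in cortex between SS + RSD and SS mice were 2097 by DESeq2 and 2 with no filter, against 511. The RLE scaling moved the median of all genes by at most 0.0462. Depth limits Htr1d above all.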

Other observations

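The libraries labelled 9674 gave values in the range of the opposite tissue for Htr4, Htr1a, Htr2a and Htr5a. The one labelled cortex held 14.9 CPM of Htr4, 38.7 of Htr1a, 14.8 of Htr2a and 15.2 of Htr5a. The one labelled hippocampus held 1.74 CPM of Htr4, 15.5 of Htr1a, 39.2 of Htr2a and 25.8 of Htr5a. The hippocampus library deposited under the labels 9887 and 9877 held 90.4 CPM of Htr2c, above the 78.6 that was the highest among the libraries used. The AA + minocycline mouse, which entered no comparison, had 2.95 CPM of Htr4 in cortex and 12.2 in hippocampus.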
